A study of Rattus norvegicus with 16 samples.

Results

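The genes described here encode the proteasome, its regulators and the chaperones that build it, measured in the gustatory cortex (GC) of rats after they drank a familiar or an unfamiliar taste. With earlier results of these data known, they were chosen by a rule on the gene name. The rule took every probe set (the oligonucleotides that the array reads as 1 feature) that the array annotation pairs with exactly 1 gene. The gene symbol had to start with Psm, a letter from a to g and a number. This gave 54 of the 15209 probe sets with 1 gene and 47 of the 14497 genes they cover. Of the 47 genes, 44 encode proteasome proteins, and 3 share only the form of the name or are a copy of a subunit gene (Psma3l, Psmc3ip and Psme3ip1). The 44 comprised 13 genes of the constitutive core, 17 of the regulatory particle, 4 inducible or tissue-specific catalytic subunits, 4 activators, 3 chaperones of core assembly and 3 chaperones of regulatory particle assembly. For the 7 genes with 2 probe sets, the brighter one was used in the summaries. Psma3, Psma8, Psmf1 and Psmg3 were not analysed here, since no probe set is paired with any of them alone.

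Each of the 16 arrays (Affymetrix RaGene 1.1 ST v1) held the RNA of the GC, the taste region of the insular cortex, of 1 male Wistar Hola rat, labelled as 2 months old. All rats had been on water restriction for 3 days. On the test day they were given a familiar drink, water, or an unfamiliar one, 0.1% saccharin, and the tissue was taken 1 h or 3 h later, which gave 4 groups of 4 rats. Values are log2 expression levels after robust multi-chip averaging (RMA), on which equal differences stand for equal ratios. Array medians lay between 6.11 and 6.18, any pair of arrays correlated at 0.996 to 0.998 over these probe sets, and no pair was identical. Every array numbered C365 to C372 was from 3 h and every one numbered C373 to C380 from 1 h, so the order of numbering and the time cannot be told apart. Of the 6 measured excitatory cortical markers, Slc17a7, Nrgn and Camk2a were the brightest, with means of 10.9, 11.2 and 11.8. Neurod6, Fezf2 and Neurod2 were at 8.57, 7.69 and 6.86. With saccharin at 1 h, the mean level of the 7 measured astrocyte markers was 9.59, beside 9.50 for these 6. In such bulk tissue, fewer cells of a type and less RNA per cell cannot be told apart.

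The proteasome degrades proteins tagged with ubiquitin. Its barrel-shaped core, the 20S particle, is a stack of rings in which the alpha subunits (Psma genes) form the gate and the beta subunits (Psmb genes) hold the protease sites, and the 19S regulatory particle on its ends binds the tag, removes it, and unfolds the substrate with a ring of ATPases (Psmc genes) helped by non-ATPase subunits (Psmd genes). In neurons, protein degradation by this system is known to take part in synaptic plasticity and memory, alongside protein synthesis. The subunits are needed in fixed proportions, and their genes are known to be controlled jointly by the transcription factor NFE2L1 through antioxidant response elements in their promoters.

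A form of this element, TGACNNNGC, was searched for on both strands in the 250 bases before the gene start, using RefSeq promoters of the build GRCr8, which hold 39 of the 44 genes (all but Psma7, Psmb11, Psmd6, Psmd12 and Psmd14). It was present before 6 of these 39 genes (15.4%), against 10.1% of all 33469 promoters of the same length. The stretches are shown because they match a form of the element through which such joint control is known to act. Whether these matches act was not tested. The match is in capitals and each strand is read in the direction of its gene.
Psmb2, chr5:144254965-144255023, plus strand: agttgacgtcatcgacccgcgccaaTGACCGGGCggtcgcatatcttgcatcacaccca
Psmb5, chr15:32047406-32047464, minus strand: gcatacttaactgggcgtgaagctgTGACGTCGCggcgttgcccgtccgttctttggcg
Psmb6, chr10:55737839-55737887, plus strand: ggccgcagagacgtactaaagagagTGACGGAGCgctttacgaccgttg
Psmd1, chr9:94157781-94157839, plus strand: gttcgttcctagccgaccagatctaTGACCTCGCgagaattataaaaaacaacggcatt
Psmd9, chr12:39018308-39018366, minus strand: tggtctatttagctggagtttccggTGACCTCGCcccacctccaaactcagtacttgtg
Psme4, chr14:108706563-108706621, plus strand: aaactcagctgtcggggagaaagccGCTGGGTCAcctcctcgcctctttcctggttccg
In Psme4 the element lies on the strand opposite to the gene, so the capitals show its reverse complement. Psmd9 held a further match on the opposite strand, ending 116 bases before its start. CCAAT, the box bound by the factor NF-Y, was present on either strand before 17 of the 39 genes (43.6%), against 34.0% of all promoters. In Psmb2 a CCAAT ends on the first letter of the element. A match describes the letters and does not show binding.

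Proteasome transcripts differed little between any of the 4 groups. In limma, 0 of the 54 probe sets passed a Benjamini-Hochberg adjusted p under 0.05 in any of 7 comparisons. These were time after saccharin (where 0.348% of all 15209 probe sets passed), time after water (0.125%), time averaged over both tastes (1.01%), and, with 0% of all probe sets passing in each, taste at 1 h, taste at 3 h, taste averaged over both times, and the interaction of time and taste. At an unadjusted p under 0.05 the counts were 1 of 54 for time after saccharin (background 7.98%), 4 of 54 for time after water (7.23%) and 7 of 54 for time averaged over tastes (12%). They were 0 of 54 for taste at 1 h (3.06%), taste at 3 h (3.37%), averaged taste (3.39%) and the interaction (2.96%). Thus the share of members with such a p was near or below that of all genes in every comparison. The cut-off of the study's methods was a p of at most 0.05 with a fold change of at least 1.25, without a statement on adjustment. Applied here to the unadjusted limma p, 0 of 54 were past it in the 4 comparisons between pairs of groups. The shares of all probe sets were 0.75% for time after saccharin, 0.572% for time after water, 0.0855% for taste at 1 h and 0.138% for taste at 3 h.

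How large a difference could have gone unseen is given by the 95% intervals of the fit. For time averaged over tastes, 53 of 54 probe sets had an interval lying wholly within a 1.25-fold change in either direction (97.1% of all probe sets), and for averaged taste 53 of 54 (98.7%). The same held for 53 of 54 for time after saccharin (91.6%), 51 of 54 for time after water (91.8%), 53 of 54 for taste at 1 h (94.4%) and 53 of 54 for taste at 3 h (94%). For the interaction it held for 45 of 54 (75.3% of all probe sets, and 86.4% of the 7904 with a mean of at least log2 6, a level that 45 of the 54 reached). All 13 core genes and all 17 regulatory genes lay within these bounds in each of the 7 comparisons, and these intervals hold for each gene taken singly. Between 1 h and 3 h, averaged over tastes, the outermost bounds were -8.51% and 19.5% over the core genes and -10.4% and 13.1% over the regulatory genes. Between saccharin and water they were -10.6% and 8.71% over the core and -7.05% and 9.02% over the regulatory genes.

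**Figure D1:**
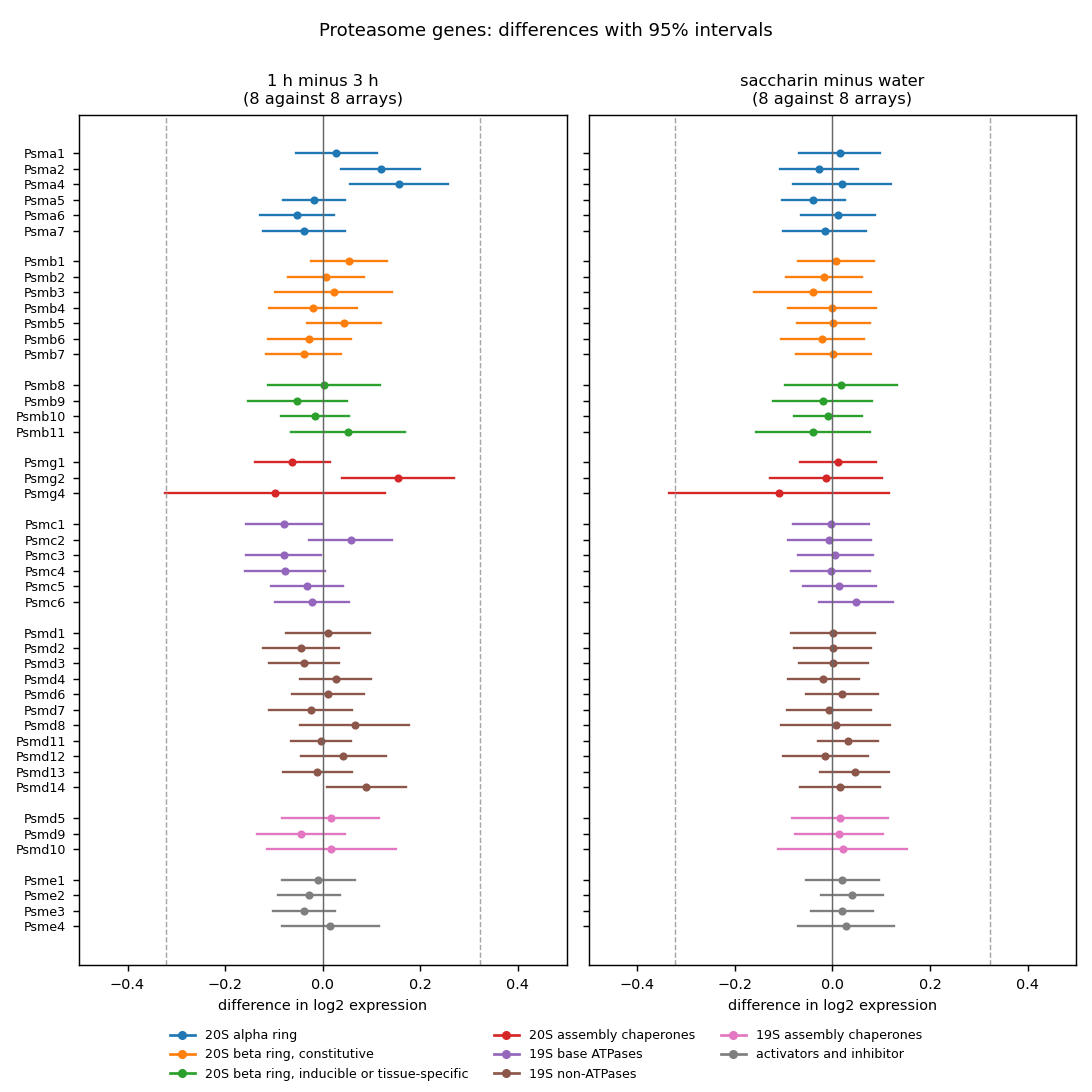
Difference in log2 expression of the 44 proteasome genes between 1 h and 3 h (left, averaged over tastes) and between saccharin and water (right, averaged over times), as points with 95% intervals from limma, coloured by class. Dashed lines mark a 1.25-fold change either way, and all but the interval of Psmg4, in both panels, lie between them.

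In the alpha ring, which gates entry to the core, the leading values were those of Psma4 and Psma2. Psma4 stood at 9.35, 9.35, 9.11 and 9.16 in the 4 arrays of saccharin at 1 h, 9.25, 9.27, 9.30 and 9.08 with water at 1 h, 9.12, 9.08, 9.02 and 9.14 with saccharin at 3 h and 9.09, 8.99, 8.97 and 9.20 with water at 3 h. Its group means were 9.24 ± 0.12 with saccharin at 1 h, 9.23 ± 0.10 with water at 1 h, 9.09 ± 0.055 with saccharin at 3 h and 9.06 ± 0.10 with water at 3 h (SD, n = 4 in each group). Both 1 h groups held arrays above all 3 h arrays, and the lower 1 h arrays overlapped them. The difference of 1 h over 3 h was 0.16 (SE 0.048, 95% interval 0.057 to 0.26), or 11.5%, with an adjusted p of 0.148, the smallest of any member in any of the comparisons. It was 0.15 after saccharin (adjusted p = 0.589) and 0.16 after water (adjusted p = 0.600). The exact two-sided permutation test over the 16 arrays gave p = 0.00606 without adjustment for the number of genes.

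Psma2 stood at 8.20, 8.16, 8.11 and 8.17 in the 4 arrays of saccharin at 1 h, 8.12, 8.30, 8.36 and 8.13 with water at 1 h, 8.11, 8.05, 8.11 and 8.05 with saccharin at 3 h and 8.05, 8.06, 8.04 and 8.13 with water at 3 h. The 2 highest arrays were both of water at 1 h, and the others of that group lay within the range of the saccharin 1 h arrays. Its difference of 1 h over 3 h was 0.12 (SE 0.038, adjusted p = 0.176), with 0.16 after water (adjusted p = 0.483) and 0.082 after saccharin (adjusted p = 0.765). The other 4 alpha genes (Psma1, Psma5, Psma6 and Psma7) lay between -0.052 and 0.028, so the median of the 6 was 0.0051, and 3 of the 6 were above 0.

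**Figure D2:**
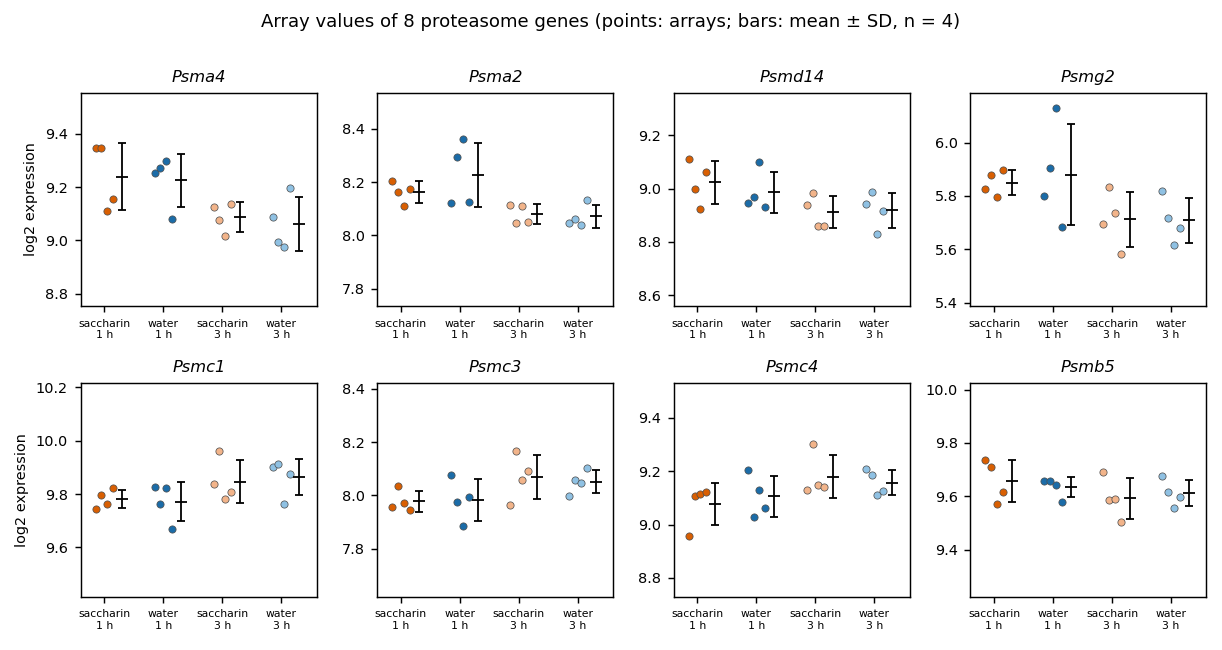
Log2 expression of 8 proteasome genes in each of the 16 arrays, by group, with the mean and SD of the 4 arrays beside the points. All panels span 0.8 log2 units. Psma4, Psma2, Psmd14 and Psmg2 had higher means at 1 h, Psmc1, Psmc3 and Psmc4 had lower means at 1 h, and Psmb5 is a catalytic subunit with a difference of 0.043.

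The protease sites sit on 3 constitutive beta subunits, and none of their genes differed detectably. Psmb5, which carries the chymotrypsin-like site, stood at 9.73, 9.71, 9.57 and 9.61 in the 4 arrays of saccharin at 1 h, 9.66, 9.66, 9.64 and 9.58 with water at 1 h, 9.69, 9.59, 9.59 and 9.50 with saccharin at 3 h and 9.67, 9.62, 9.56 and 9.60 with water at 3 h. Its arrays overlapped in all comparisons, with 0.043 for 1 h over 3 h (95% interval -0.032 to 0.12) and 0.0017 for saccharin over water (-0.074 to 0.077). Psmb6, with the caspase-like site, had group means of 6.99 ± 0.072 with saccharin at 1 h, 7.06 ± 0.10 with water at 1 h, 7.06 ± 0.015 with saccharin at 3 h and 7.04 ± 0.094 with water at 3 h (SD, n = 4 in each group). Psmb7, with the trypsin-like site, had means of 9.65 ± 0.070 with saccharin at 1 h, 9.68 ± 0.051 with water at 1 h, 9.72 ± 0.090 with saccharin at 3 h and 9.69 ± 0.039 with water at 3 h (SD, n = 4 in each group). Their differences by time were -0.028 (95% interval -0.11 to 0.057) and -0.039 (-0.12 to 0.038), and by taste -0.021 (-0.11 to 0.064) and 0.0013 (-0.076 to 0.078). The structural beta subunits Psmb1, Psmb2, Psmb3 and Psmb4 lay between -0.019 and 0.054 by time. Psmb3 had the widest spread of the core genes, with a within-group SD of 0.12.

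Psmb8, Psmb9 and Psmb10 replace the constitutive catalytic subunits in the immunoproteasome, the form induced by interferon, and Psmb11 is the catalytic subunit of the thymus. Psmb8 stood at 4.35, 4.61, 4.39 and 4.53 in the 4 arrays of saccharin at 1 h, 4.31, 4.27, 4.38 and 4.56 with water at 1 h, 4.52, 4.22, 4.41 and 4.43 with saccharin at 3 h and 4.56, 4.37, 4.37 and 4.49 with water at 3 h. The 4 groups overlapped throughout. The difference in time between the tastes, 0.14 (95% interval -0.090 to 0.37), had an interval reaching past 1.25-fold. Psmb9 had means of 4.91 ± 0.046 with saccharin at 1 h, 4.97 ± 0.12 with water at 1 h, 4.997 ± 0.13 with saccharin at 3 h and 4.98 ± 0.081 with water at 3 h (SD, n = 4 in each group). Psmb10 had means of 6.26 ± 0.079 with saccharin at 1 h, 6.28 ± 0.023 with water at 1 h, 6.29 ± 0.062 with saccharin at 3 h and 6.28 ± 0.021 with water at 3 h (SD, n = 4 in each group). By time, Psmb9 differed by -0.052 (-0.15 to 0.049), Psmb10 by -0.015 (-0.085 to 0.054) and Psmb11 by 0.052 (-0.065 to 0.17). The level of Psmb10 varied little, with the 16 arrays within 0.19 of each other.

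Assembly of the 20S core needs chaperones encoded by the Psmg genes, in which Psmg1 and Psmg2 form a pair. Psmg2 stood at 5.83, 5.88, 5.79 and 5.90 in the 4 arrays of saccharin at 1 h, 5.80, 5.91, 6.13 and 5.68 with water at 1 h, 5.70, 5.83, 5.74 and 5.58 with saccharin at 3 h and 5.82, 5.72, 5.61 and 5.68 with water at 3 h. The highest array was 1 of water at 1 h, and another array of that group was lower than most of the 3 h arrays. Its difference of 1 h over 3 h was 0.15 (SE 0.055, 95% interval 0.039 to 0.27, adjusted p = 0.232). Its partner Psmg1 differed by -0.062 (95% interval -0.14 to 0.016). Psmg4 was the most variable member, with a within-group SD of 0.25 and arrays of water at 3 h at 4.88, 4.69, 5.41 and 5.09, so its interval by time ran from -0.32 to 0.13 and neither its -0.10 by time nor its -0.11 by taste can be set apart from 0.

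In the ring of 6 ATPases that unfolds substrates, 5 had lower means at 1 h than at 3 h, averaged over tastes. The median of the 6 was -0.055, beside -1.2e-05 over all 15209 probe sets. By drink, Psmc2 (0.068) and Psmc6 (0.021) were higher at 1 h after saccharin, and Psmc2 (0.046) and Psmc5 (0.0053) after water. None of the 6 passed the adjusted threshold. Psmc3 stood at 7.96, 8.04, 7.97 and 7.95 in the 4 arrays of saccharin at 1 h, 8.08, 7.98, 7.89 and 7.99 with water at 1 h, 7.96, 8.17, 8.06 and 8.09 with saccharin at 3 h and 7.999, 8.06, 8.05 and 8.10 with water at 3 h. Its difference was -0.080 (SE 0.036, 95% interval -0.16 to -0.0032, adjusted p = 0.391). Psmc1 stood at 9.74, 9.80, 9.76 and 9.82 in the 4 arrays of saccharin at 1 h, 9.83, 9.76, 9.82 and 9.67 with water at 1 h, 9.84, 9.96, 9.78 and 9.81 with saccharin at 3 h and 9.90, 9.91, 9.76 and 9.88 with water at 3 h. For it the difference was -0.079 (SE 0.037, 95% interval -0.16 to -0.0012, adjusted p = 0.406). The highest value of either gene was that of C368, of saccharin at 3 h, which was above the mean of the 16 arrays for all 6 ATPases. Without C368 the differences were -0.064 for Psmc3 and -0.060 for Psmc1, and without C378, of water at 1 h, the difference of Psmc1 was -0.062.

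Psmc4 had 2 probe sets, both with lower means at 1 h after either drink. The larger difference was after saccharin in the brighter probe set and after water in the other. The brighter one stood at 8.96, 9.11, 9.12 and 9.12 in the 4 arrays of saccharin at 1 h, 9.20, 9.03, 9.13 and 9.06 with water at 1 h, 9.13, 9.30, 9.15 and 9.14 with saccharin at 3 h and 9.21, 9.19, 9.11 and 9.13 with water at 3 h. All 4 saccharin arrays at 1 h were below all 4 at 3 h, an exact two-sided permutation p of 0.0286, the smallest that 4 arrays against 4 can give. This was the only member probe set whose arrays did not overlap in that comparison, beside 4.78% of all probe sets, and the difference was -0.10 (limma adjusted p = 0.692), or -0.062 without C368. After water it was the other probe set whose arrays did not overlap (1 of 54 members, 4.35% of all), at 9.03, 8.96, 9.03 and 8.97 at 1 h and 9.15, 9.14, 9.08 and 9.07 at 3 h, with -0.11 (adjusted p = 0.578). Averaged over tastes, the 2 probe sets differed by -0.077 and -0.10 (adjusted p = 0.448 and 0.193). Psmc2 was the exception among the ATPases, at 0.057, while Psmc5 and Psmc6 were at -0.033 and -0.023.

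Of the 7 probe sets with an unadjusted p under 0.05 for averaged time, 4 were higher at 1 h (Psma4, Psma2, Psmd14 and Psmg2, beside 6.25% of all probe sets in that direction) and 3 were lower (Psmc3, Psmc1 and 1 of Psmc4, beside 5.77%). By class, the higher ones were of the alpha ring, the non-ATPases and a chaperone, and the lower ones were ATPases. Both counts, taken over all members, were near the share of all probe sets. They do not speak to single classes, and no test of a class was run. The brighter probe set of Psmc4 was not among the 7 (limma unadjusted p = 0.0631). Psmd14, the subunit that cuts ubiquitin chains off substrates, stood at 9.11, 8.999, 8.92 and 9.06 in the 4 arrays of saccharin at 1 h, 8.94, 8.97, 9.10 and 8.93 with water at 1 h, 8.94, 8.98, 8.86 and 8.86 with saccharin at 3 h and 8.94, 8.99, 8.83 and 8.91 with water at 3 h. It differed by 0.090 for 1 h over 3 h (95% interval 0.0083 to 0.17, adjusted p = 0.349), with 0.11 after saccharin and 0.068 after water (0.030 without C376). The remaining 10 non-ATPases lay between -0.045 (Psmd2, a scaffold of the base) and 0.066 (Psmd8), and 6 of the 11 were above 0. Psmd4, a ubiquitin receptor, differed by 0.027 averaged over tastes, and Psmd3 by -0.068 after water (adjusted p = 0.820), or -0.030 without C378. The chaperones of regulatory particle assembly, Psmd5, Psmd9 and Psmd10, were at 0.016, -0.045 and 0.018, each with an interval that includes 0.

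Activators open the core without the 19S particle. Psme1 and Psme2 encode the interferon-inducible PA28 pair, Psme3 the nuclear PA28 gamma and Psme4 the PA200 cap. Psme2 stood at 8.12, 8.01, 8.08 and 8.03 in the 4 arrays of saccharin at 1 h, 8.09, 7.96, 8.07 and 8.05 with water at 1 h, 8.08, 8.14, 8.11 and 8.12 with saccharin at 3 h and 8.02, 8.05, 8.06 and 8.04 with water at 3 h. At 3 h the 4 saccharin arrays were all above the 4 water arrays (exact two-sided permutation p = 0.0286), the only such member for taste at 3 h, beside 1.91% of all probe sets, and at 1 h no member was separated, beside 1.5%. The difference for Psme2 at 3 h was 0.066 (95% interval -0.023 to 0.16, limma adjusted p = 0.999), and its other probe set was at 0.049. Psme1 had means of 7.77 ± 0.066 with saccharin at 1 h, 7.76 ± 0.089 with water at 1 h, 7.78 ± 0.047 with saccharin at 3 h and 7.76 ± 0.028 with water at 3 h (SD, n = 4 in each group), with 0.020 by taste (-0.055 to 0.094) and -0.0089 by time (-0.084 to 0.066). For Psme4, which differed by 0.10 between saccharin and water at 1 h and by -0.039 at 3 h, the interaction of 0.13 had a 95% interval of -0.064 to 0.33. Its value at 1 h was 0.17 without C377, 0.058 without C379 and 0.044 without C373, and its interaction 0.21 without C377 and 0.083 without C373.

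Between saccharin and water, no member passed in any class. Among the 44 genes, each by its brighter probe set, those with the smallest p at 1 h were Psmc6, an ATPase, at 0.092 (95% interval -0.016 to 0.20) and Psme4 among those higher with saccharin, and Psmd4 at -0.075 (-0.18 to 0.028) and Psma5 at -0.059 (-0.15 to 0.032) among those lower. At 3 h they were Psmd11, a scaffold subunit of the lid, at 0.073 (-0.014 to 0.16) and Psme2, and on the other side Psmg4 at -0.16 (-0.48 to 0.16) and Psma7 at -0.044 (-0.16 to 0.076). All had adjusted p of at least 0.999. Single arrays moved several of these: Psmd4 was at -0.038 without C380, Psma7 at -0.0091 without C367, -0.020 without C372 and -0.074 without C369, and Psmg4 ran from -0.30 without C370 to -0.034 without C369. Averaged over the times, Psmc6 was at 0.049, Psmd13 at 0.046, Psma5 at -0.039 and Psmg4 at -0.11, of which Psmc6 was at 0.030 without C368 and Psmg4 between -0.18 without C370 and -0.045 without C369. For the interaction, the genes below 0 with the smallest p were Psmd10, also known as the oncoprotein gankyrin, at -0.20 (-0.47 to 0.063) and Psmd4 at -0.11 (-0.26 to 0.033).

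The comparison of taste at 1 h and that at 3 h rest on different rats, as do the comparisons of time after saccharin and after water, so that each can be set beside the other. Across the 44 genes, the differences by time had the same sign after both drinks for 30 genes (68.2%), with Pearson's r = 0.49 and Spearman's rho = 0.40 over genes, which are not independent. This was about the share seen over the 7904 probe sets with a mean of at least 6 (67.2%, r = 0.64). The differences by taste had the same sign at both times for 13 of the 44 (29.5%), with r = -0.22 and rho = -0.33, against 50.9% and r = 0.026 over those 7904. Many of these signs rest on single arrays. With each array left out in turn, 28 of the 44 changed sign at least once for taste at 1 h and 29 for taste at 3 h. For time after saccharin 18 did, and for time after water 16.

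As a class, core and regulatory genes kept nearly the same level in the 4 groups. Each array's class level was taken as the mean, over the genes of the class, of the difference from the gene's mean of 16 arrays. The core was at -0.00095 ± 0.054 with saccharin at 1 h, 0.019 ± 0.059 with water at 1 h, -0.0072 ± 0.034 with saccharin at 3 h and -0.011 ± 0.016 with water at 3 h (SD, n = 4 in each group). The regulatory particle was at -0.0028 ± 0.022, -0.0036 ± 0.050, 0.011 ± 0.054 and -0.0044 ± 0.019 in the same order. The group means of either class therefore differed by less than the SD of the widest group. Core minus regulatory was 0.0019 ± 0.033, 0.023 ± 0.018, -0.018 ± 0.050 and -0.0065 ± 0.019. Its group means too lay within the SD of the widest group of each other. That SD describes single arrays, and no interval for a difference of class levels is given here. With water at 1 h core minus regulatory was above 0 in all 4 arrays (0.0053 to 0.044), while each other group held arrays on both sides of 0. The median change of the core genes was -0.0095 for time after saccharin, 0.022 for time after water, -0.024 for taste at 1 h and 0.0077 for taste at 3 h. For the regulatory genes the medians were -0.019, 0.0053, -0.0053 and 0.012, and over all 15209 probe sets 0.0023, -0.0023, 0.0025 and -0.0034. The sign of each of these 8 medians of the core and regulatory genes depended on single arrays. With each array left out in turn, the core medians ran from -0.035 to 0.024, -0.0029 to 0.057, -0.041 to 0.0093 and -0.0025 to 0.018 in the same order, and those of the regulatory genes from -0.029 to 0.0014, -0.020 to 0.028, -0.028 to 0.017 and -0.023 to 0.030.

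**Figure D3:**
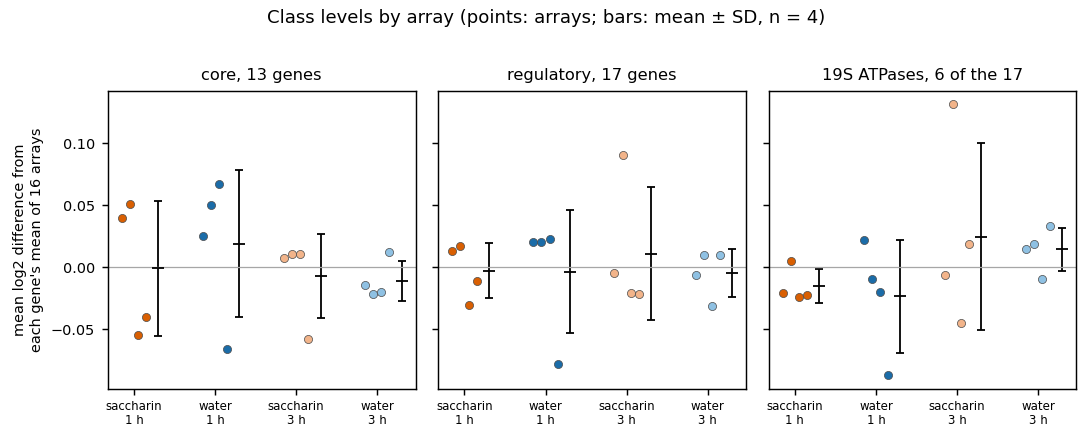
Class levels in each array (log2, as the mean difference of the genes of a class from their means over 16 arrays) for the core, the regulatory particle and its ATPases, with the mean and SD of 4 arrays per group. The groups overlap in all 3 panels, array C368 of saccharin at 3 h is the highest for the regulatory genes (0.091) and array C378 of water at 1 h is the lowest for both (-0.066 and -0.078).

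Some single arrays lay off the mean of the 16 arrays for many subunits at once. Array C378, of water at 1 h, was the lowest of the 16 for the core (-0.066) and for the regulatory genes (-0.078). Array C368, of saccharin at 3 h, was the highest for the regulatory genes (0.091), and for their ATPases it was at 0.13, while its core level was 0.011. Deviations from the group means were positively correlated over the 16 arrays in 65 of the 78 pairs of core genes (median r = 0.32), in 116 of the 136 pairs of regulatory genes (0.30) and in 175 of the 221 pairs of a core with a regulatory gene (0.24). Core genes with the probe sets of a mean of at least 6 outside the family had a median r of 0.12. Without C378 the medians were 0.20, 0.20 and 0.11, beside 0.066, and without C368 the regulatory median was 0.19. These are descriptions, since all genes were read on the same arrays and share their RNA.

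**Figure D4:**
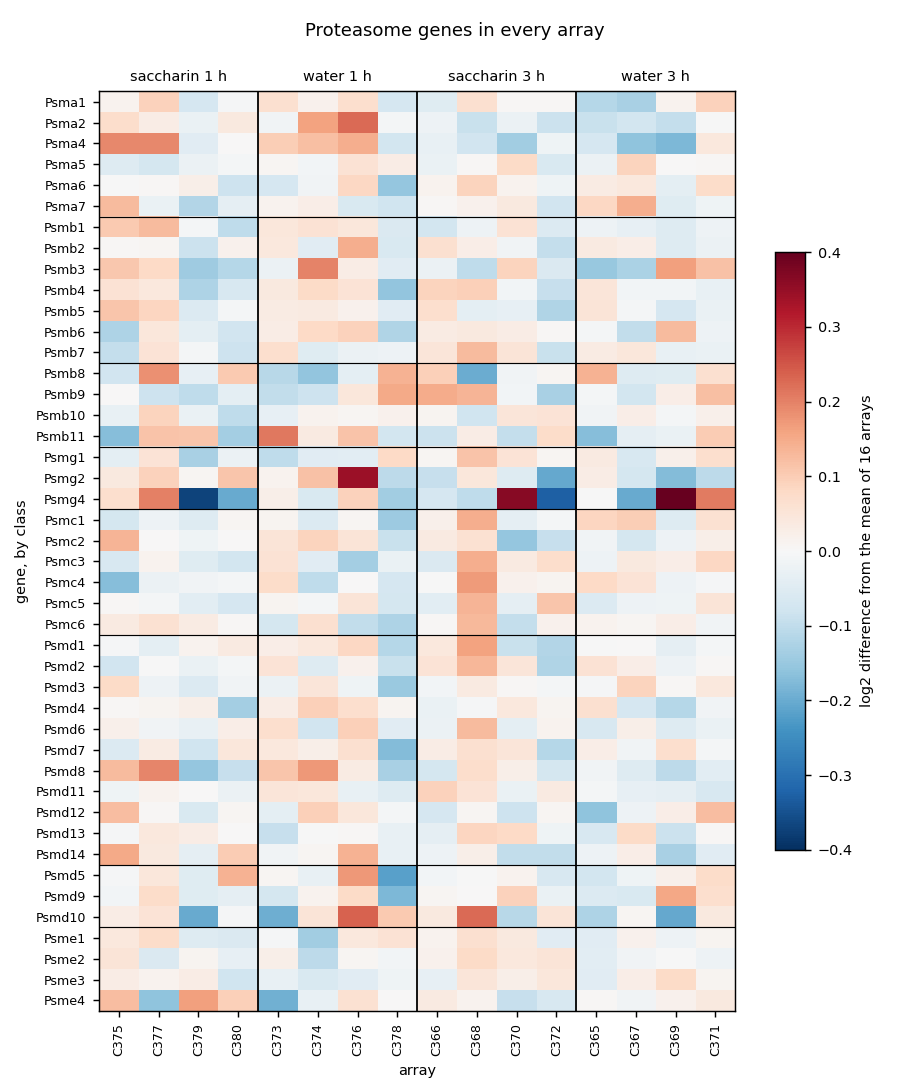
Difference of each of the 44 genes (in lines, grouped by class) from its own mean over the 16 arrays (in columns, grouped by taste and time), in log2 units from -0.4 (blue) to 0.4 (red). Most cells are pale, C368 shows the regulatory genes above and C378 most subunits below their means, and Psmg4 has the widest swings.

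The spread between rats was also small. The median within-group SD was 0.070 for core genes and 0.067 for regulatory genes, against 0.081 for all probe sets with a mean of at least 6 and 0.093 for all 15209. It was 0.052 for the activators, 0.11 for the inducible subunits and 0.12 for the core chaperones.

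For the 7 genes with 2 probe sets, the averaged differences by time had the same sign in 6, the exception being Psme1 (-0.0089 and 0.030). The deviations of the 2 probe sets from their group means correlated at 0.61 for Psmd8, 0.52 for Psmc4, 0.50 for Psme3, 0.38 for Psme2, 0.36 for Psmb6, 0.21 for Psma6 and -0.41 for Psme1, over 16 arrays. The dimmer probe set of Psma6, with a mean of 3.22, was the only member below 3.86, the level that 95% of 1309 probe sets of chemosensory receptors did not exceed. The 3 matches with no class, Psma3l (a copy of Psma3), Psmc3ip (a factor of meiotic recombination) and Psme3ip1 (a partner of the activator Psme3), differed by 0.039, -0.014 and -0.045 by time and by -0.025, 0.061 and 0.054 by taste.

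The 6 genes with the TGACNNNGC element shown above had averaged differences by time of 0.0068 (Psmb2), 0.043 (Psmb5), -0.028 (Psmb6), 0.012 (Psmd1), -0.045 (Psmd9) and 0.016 (Psme4). None was among the 7 probe sets with an unadjusted limma p under 0.05. Of all probe sets 12% had such a p, so none among 6 says little. Nfe2l1, which encodes the factor that raises proteasome transcription when proteasome activity falls, had means of 9.25 ± 0.011 and 9.28 ± 0.027 at 1 h and 9.32 ± 0.049 and 9.35 ± 0.043 at 3 h (saccharin and water, SD, n = 4). Its difference of -0.070 for 1 h over 3 h did not pass (adjusted p = 0.323). The related Nfe2l2 was at 0.093 (adjusted p = 0.438) and their partner Mafk at 0.13 (adjusted p = 0.325). Of the 14 measured genes that control proteasome transcription, 0 of 14 passed in any comparison, where at most 1.01% of all probe sets did.

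Around the proteasome, 2 genes of the wider pathway passed, both for averaged time, in which 1.01% of all probe sets passed. Mdm2, the ubiquitin ligase of p53, was higher at 1 h, with means of 7.42 ± 0.046 and 7.41 ± 0.11 against 7.26 ± 0.044 and 7.22 ± 0.078 at 3 h (saccharin and water, SD, n = 4). The difference was 0.18 (SE 0.039, adjusted p = 0.0351), the only 1 of 23 measured ubiquitin ligases and deubiquitinases of neurons to pass, in which Siah1, also a ligase, was at 0.13 (adjusted p = 0.0721). Hspa5 was lower at 1 h, with means of 10.38 ± 0.058 and 10.40 ± 0.029 against 10.58 ± 0.0058 and 10.57 ± 0.15, a difference of -0.18 (SE 0.041, adjusted p = 0.0370). It was 1 of 11 measured genes in the list for MHC class I antigen processing, where it encodes the general chaperone of the endoplasmic reticulum, BiP, and not a protein particular to antigen processing. The call of Mdm2 was lost when any 1 of 11 of the 16 arrays was left out (all but C366, C371, C373, C375 and C378), and that of Hspa5 without any 1 of 14 (all but C365 and C371), with adjusted p of up to 0.0830 and 0.0887. Their sizes were 0.16 to 0.20 and -0.21 to -0.15 in all alternatives. Calr, another chaperone there, was at -0.12 (adjusted p = 0.121).

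In the other lists 0 genes passed in any comparison. These held 8 measured proteins that associate with the proteasome, 13 shuttles and cofactors of the segregase VCP, and 2 ubiquitin activating enzymes. At most 1.01% of all probe sets passed in any comparison, so 0 in lists this short says little. Uchl5, a deubiquitinase of the 19S particle, was at 0.12 (adjusted p = 0.308) and Pomp, which matures the core, at -0.11 (adjusted p = 0.651), both for averaged time. Sqstm1, a shuttle that is also an autophagy receptor, was at -0.075 (adjusted p = 0.332), and Faf2, a VCP cofactor, was at -0.13 for time after water (adjusted p = 0.608). Uba6 and Uba1, which start the ubiquitin cascade, were at -0.042 for averaged time and -0.059 for time after water. The median over the ligases and deubiquitinases was 0.025, with 14 of 23 above 0.

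Of the lists of markers of the cells in the dissected tissue, none held a gene that passed the adjusted threshold for averaged time. For averaged time, 9 of the 12 measured markers of the leptomeninges and fibroblasts (16 listed) had an unadjusted p under 0.05, beside 12% of all probe sets. All 12 had higher means at 1 h in both tastes, with a median of 0.29 for averaged time. Their mean level was 6.68 to 6.97 with saccharin at 1 h, 6.61 to 6.94 with water at 1 h, 6.09 to 6.79 with saccharin at 3 h and 6.34 to 6.75 with water at 3 h over the 4 arrays of a group. Of the 6 measured cortical excitatory markers, 1 was above 0 for averaged time (median -0.041). Of the 9 measured microglial markers, 3 were (median -0.025), and of the 6 of oligodendrocytes, 1 was (-0.022). Over the 8 measured markers of striatal neurons 3 were above 0 (-0.088), and the astrocyte, inhibitory neuron, endothelial and blood lists had medians between 0.0096 and 0.020. Other lists also held markers with an unadjusted limma p under 0.05 for averaged time. These were 1 higher and 2 lower at 1 h of 6 excitatory, 1 and 3 of 8 striatal, and 2 and 1 of 8 blood markers. There were 0 and 2 of 9 microglial, 0 and 2 of 7 endothelial, 0 and 1 of 7 astrocyte, and 0 oligodendrocyte and inhibitory markers. The blood markers ranged from -0.15 to 0.36. The part of these cell types in the differences by time of Psma4, Psma2, the ATPases, Mdm2 and Hspa5 was not tested.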

How the data were processed

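Expression in the gustatory cortex was measured on 16 arrays, 1 per rat, and samples were grouped by the labels into 4 taste-by-time groups. The values deposited by the authors are log2 levels, for which they processed the raw files with the package affy (version not given in the sources used here), quantile normalised all chips together and summarised each probe set by RMA. They chose probe sets with 1 gene by alignment, whereas the array annotation was used here (15209 of 28826 probe sets, with 306 paired with several genes and 13311 not listed in it).

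A model of the 4 group means was fitted by limma (3.58.1, under R 4.3.3), and the p-values of 7 two-sided contrasts were adjusted by Benjamini-Hochberg over the 15209 probe sets. Differences by time are 1 h minus 3 h, those by taste saccharin minus water. The 95% intervals come from the same fit and hold for single genes. Single genes were also tested by exact permutation over arrays. Other steps used python 3.11.15 with numpy 2.4.6, pandas 2.3.3 and matplotlib 3.10.9. On simulated data for averaged time over 15209 probe sets, limma recovered 77 of 100 changes of 0.25 (log2) and 99 of 100 of 0.5, with 9 false calls among 15009 others. The noise was drawn independently for each probe set, so shifts shared by many genes of an array were not simulated. Both sizes were larger than the difference of any member for averaged time, so recovery of changes as small as theirs was not measured. For arrays, their number limits the precision.

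Members and lists were chosen with earlier results of these data known. Described in full were, per contrast, the 2 members with the smallest p in each direction, the catalytic subunits, Psme1 and Psme2, any member past the threshold, and up to 2 genes per pathway list with the smallest p. Siah1, Calr, Nfe2l2 and the members named for a range or a function were added after values were seen, as were the share of intervals within 1.25-fold and the promoter search. Alternatives concerned the probe sets entered, dim probe sets, scaling, prior, array weights, moderation, arrays entered, the study's cut-off and leaving out each array.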

Additional observations from a re-analysis of the deposited data

Results flagged for a closer look

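In 11 of 184 sets of 4 values (a gene or class in 1 group), 1 array stood far from the other 3, where chance gives about 5%, or 1 in 20 sets. Array C378, of water at 1 h, was the lowest of its group for Psmb1 (8.57, the others 8.68 to 8.69), for Psmb4 (10.04, the others 10.23 to 10.27) and for the mean of the regulatory genes (-0.078, the others 0.020 to 0.023). Array C368, of saccharin at 3 h, was the highest of its group for Psmc4 (9.30, the others 9.13 to 9.15) and for the mean of the regulatory genes (0.091, the others -0.022 to -0.0045). In the same group C372 was the lowest for the mean of the core genes (-0.058, the others 0.0077 to 0.011).

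Among the arrays of saccharin at 1 h, C380 was the lowest for the activator Psme3 (8.97, the others 9.06 to 9.08) and for the ubiquitin receptor Psmd4 (7.08, the others 7.22 to 7.24). C375 was the highest for the ATPase Psmc2 (9.26, the others 9.10 to 9.12) and the lowest for the ATPase Psmc4 (8.96, the others 9.11 to 9.12). C379 was the lowest for the beta subunit Psmb2 (8.83, the others 8.92 to 8.94). No cause of these values was tested.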

How the results depend on the processing

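The count of member probe sets past the adjusted threshold was 0 in each of the 7 limma comparisons under every alternative run for all of them, the omission of each array included. It was also 0 in the 4 comparisons of pairs of groups with their 8 arrays alone, as was the count at the study's cut-off. The smallest adjusted p of a member in any of them was 0.0738 (Psma4, averaged time, with a trended and robust prior), where those of Psma4 ranged up to 0.266. The 28 pairs of a gene and a comparison chosen by smallest p kept their sign. Of 54 further pairs of a catalytic subunit, Psme1 or Psme2 and a comparison, 29 changed sign in at least 1 alternative, and none of either set gained a call. With each array omitted, 13 of 44 genes changed sign at least once for averaged time (reported values -0.024 to 0.022) and 31 of 44 for averaged taste (-0.021 to 0.021). Of the medians of the core and regulatory genes in the 7 comparisons, all but that of the core for the interaction changed sign with some array omitted, and that of the regulatory genes for the interaction moved by more than the SD between arrays of the class level. It was -0.019 as reported and lay between -0.0469 and 0.0208 with each array omitted, the latter without C368 of saccharin at 3 h. The calls of Mdm2 and Hspa5, run after they were seen, were lost under 13 and 17 of 24 alternatives, among them all probe sets (adjusted p = 0.0705 and 0.0779) and no moderation (0.0559 and 0.0656), and for Hspa5 repeated quantile normalization (0.0505). No paired analysis was possible because the groups share no replicate number. With 4 arrays against 4, the smallest exact p is 0.0286. Signals near the level of chemosensory receptors, here 1 of 54 member probe sets, limit what its difference shows.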
